A study of Zea mays with 4 samples.

Results

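Transcripts of the fie and mez genes, which encode subunits of Polycomb repressive complex 2 (PRC2), were measured in central starchy endosperm, a storage tissue inside the kernel of maize. The 4 genes were taken by their gene model identifiers from the 110028 models listed in each library. They are fie1 (GRMZM2G118205), fie2 (GRMZM2G148924), mez2 (GRMZM5G875502) and GRMZM2G043484. The last of these was chosen as mez1, but the RefSeq gene table pairs it with the name mez3 and gives mez1 to GRMZM2G157820. It is called mez3 here, and GRMZM2G157820 is reported beside the 4 genes as mez1, so that 5 genes are described. The tissue came from kernels on self-pollinated B73 plants, an inbred line, 6 days after pollination. It was cut out by laser capture, and its polyadenylated RNA was amplified before barcoded sequencing. The labels hold 1 group of 4 replicate libraries and do not say whether these came from separate plants, ears or kernels. SDs and p-values therefore cover how far these libraries differ, possibly for technical reasons alone, and no conditions could be compared. Because both parents of each kernel were B73, reads from maternal and paternal alleles cannot be told apart, and the values below are the total over both alleles.

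PRC2 places a repressive methyl mark on lysine 27 of histone H3. Its catalytic subunit belongs to the Enhancer of zeste family, encoded in maize by the mez genes, and FIE is the WD40-repeat subunit on which the catalytic subunit depends. Other subunits are a VEFS-domain protein of the EMF2 type, encoded by vef genes, and a WD40 protein of the MSI1 type, a family named nfc in maize. In Arabidopsis the complex restrains endosperm development before fertilisation and silences genes in the endosperm after it. In maize endosperm fie1 and mez1 are known as imprinted genes transcribed from the maternal allele, fie2 has been described as maternally biased only in early endosperm, and mez2 and mez3 as transcribed from both alleles.

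Levels are given as RPM, reads of a gene per 1000000 reads over all gene models of a library. Library totals, recovered from the deposited values, ran from 3432952 to 5477465 reads, and 3 reads correspond to between 0.548 and 0.874 RPM. All 5 genes stood above this floor in every library, with 123 reads for mez3 and 1026 reads for fie1 over the 4 libraries. Intervals given with levels and shares are exact 95% intervals and cover counting error only, since amplified reads are not independent molecules. RPM is not divided by transcript length, for which no value was used here, so a ratio between genes is a ratio of read shares and would shift with any difference in transcript length or in the part of it that amplification retains. Markers of other cell types were also read. For the basal endosperm transfer layer, BETL, at the base of the kernel, the 9 matched models summed to 303, 615, 515 and 67.9 RPM in replicates 1 to 4. The 3 matched markers of the embryo-surrounding region summed to 29.4, 33.9, 22.9 and 1.64 RPM. The aleurone list summed to 135, 134, 127 and 109 RPM, with 2 of its 6 matched models at 0, and the 5 matched genes of maternal and green tissue to 1055, 1151, 918 and 552 RPM. Nearly all of the last sum was ppdk1, a pyruvate phosphate dikinase gene also known to be expressed in endosperm, and the other 4 genes averaged under 1 RPM. Of the 11 matched genes of the starchy endosperm list, not all of them particular to that tissue, 5 were at 0 in every library, storage protein and starch genes of later stages among them. The genes sh2, bt2 and gz27 averaged 0.460, 0.778 and 1.31 RPM. The 3 others went different ways across the libraries: fl3 had 2674, 2188, 2107 and 1400 RPM in replicates 1 to 4, nkd1 44.0, 44.8, 69.6 and 105 RPM, and nkd2 14.0, 22.5, 23.3 and 27.2 RPM.

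The fie1 gene was the most abundant of the 5 genes. It had 46.0, 51.2, 59.5 and 56.0 RPM in replicates 1 to 4, a mean of 53.2 ± 5.87 RPM (SD, n = 4). The libraries lay within a 1.29-fold range, with replicate 1 lowest, and the gene ranked 3554 among all models by mean RPM, above 83.2% of the 21181 models with a mean of 1 RPM or more.

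The other fie gene, fie2, had 9.61, 15.8, 10.5 and 8.58 RPM in replicates 1 to 4, a mean of 11.1 ± 3.23 RPM (SD, n = 4). Replicate 2 stood above the other libraries, which lay close together. In rank fie2 stood near the middle, above 49.2% of the models with a mean of 1 RPM or more.

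Among the catalytic subunit genes, mez1 had 14.9, 11.4, 18.3 and 20.6 RPM in replicates 1 to 4, a mean of 16.3 ± 4.03 RPM (SD, n = 4). It was lowest in replicate 2 and highest in replicate 4. The mez2 gene had 22.7, 19.7, 18.1 and 18.6 RPM, a mean of 19.8 ± 2.07 RPM (SD, n = 4), and the libraries lay within a 1.26-fold range. The third paralog, mez3, was the least abundant, with 8.74, 7.74, 6.10 and 4.02 RPM in replicates 1 to 4 and a mean of 6.65 ± 2.06 RPM (SD, n = 4). Its replicate 4 value rests on 22 reads, with an interval of 2.52 to 6.08 RPM, against 5.90 to 12.5 RPM in replicate 1. In order of mean read share the genes ran fie1, mez2, mez1, fie2 and mez3. The ranges of mez2 and mez1 overlapped, as did those of mez1 and fie2 and of fie2 and mez3, whereas fie1 was above each of the other genes in every library.

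**Figure D1:**
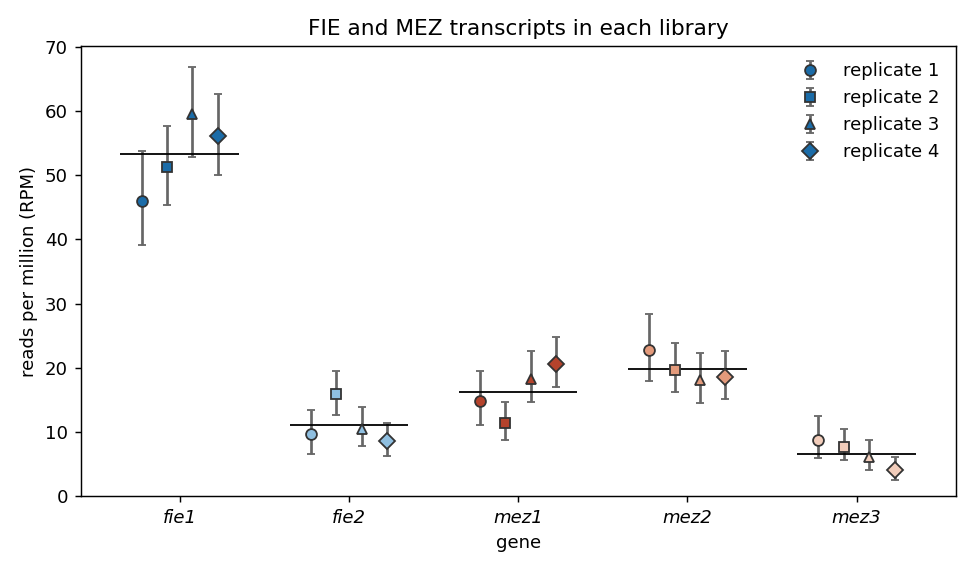
Level of each gene in RPM (vertical axis) by gene (horizontal axis); symbols are the 4 libraries, bars are exact 95% Poisson intervals of the reads and horizontal lines are means. The 4 values of fie1, from 46.0 to 59.5 RPM, lie above all values of the other genes, and those of mez3 lie lowest on average, from 4.02 to 8.74 RPM.

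Within the fie pair, reads of fie1 outnumbered those of fie2 in every library. The fie1 share of all fie reads was 82.7% in replicate 1 (76.6% to 87.8%, exact Clopper-Pearson), 76.4% in replicate 2 (71.7% to 80.6%), 85.0% in replicate 3 (80.7% to 88.6%) and 86.7% in replicate 4 (82.7% to 90.1%). All 4 intervals lay above an even split of 50%. The share varied beyond counting error: the interval of replicate 2 lay below those of replicates 3 and 4, and it was replicate 2 in which fie2 was highest.

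On the log2(RPM + 0.5) scale the ratio of fie1 to fie2 was 2.20, 1.66, 2.45 and 2.64 in replicates 1 to 4, with a mean of 2.24 ± 0.42 (SD, n = 4), or 4.71-fold. A 95% interval from the spread of the 4 ratios alone ran from 1.56 to 2.91. The ratio was positive in 4 of 4 libraries (exact two-sided sign-flip permutation p = 0.13, the smallest that 4 libraries can give, so that no pair could pass 0.05 by this test). The adjusted p from limma, fitted to the ratio of every gene to fie2 and adjusted over 21180 genes, was 7.5e-17. In that fit 81.9% of genes differed from fie2, so a call says little about fie1 in particular. The error of fie2 in 4 libraries also enters the ratio of every gene, so limma pooled variances that are not independent. Its p-values here and below are too small, and the interval of each ratio alone is the sounder guide.

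Within the mez family, reads were spread more evenly. The mez1 share of mez reads was 32.1%, 29.4%, 43.1% and 47.7% in replicates 1 to 4, the mez2 share 49.1%, 50.7%, 42.6% and 43.0%, and the mez3 share 18.9%, 19.9%, 14.4% and 9.28%. Replicates 1 and 2 thus had mez2 as the leading catalytic subunit gene. In replicates 3 and 4 mez1 and mez2 were close, with 87 against 86 and 113 against 102 reads. The interval of the mez1 share of these reads held 50% in both libraries. Of the reads of mez1 and mez2 alone, mez1 had 36.7% in replicate 2 (29.4% to 44.4%, exact Clopper-Pearson) and 52.6% in replicate 4 (45.7% to 59.4%). These 2 intervals did not overlap, and they were the only such case among the 6 pairs of libraries.

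**Figure D2:**
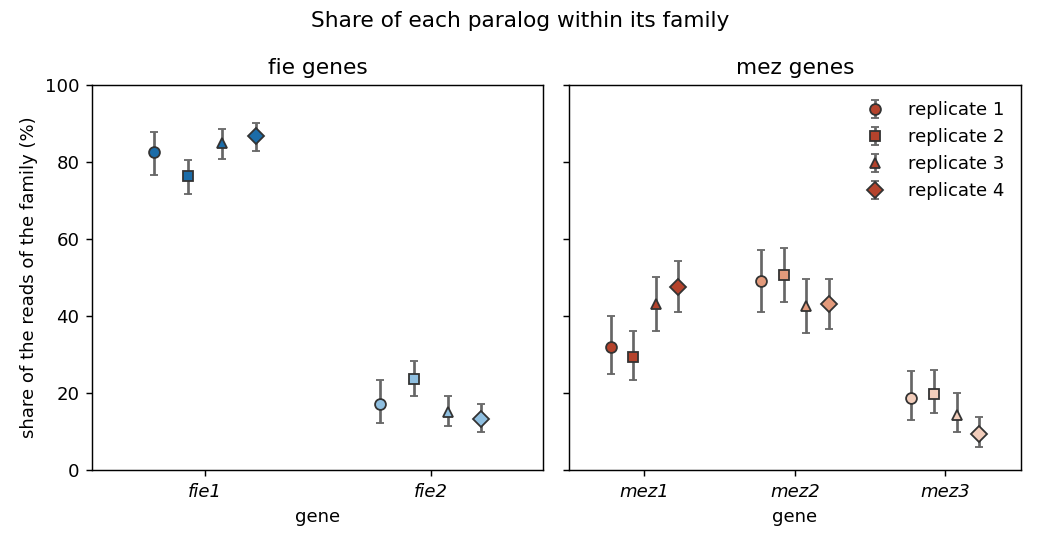
Share of each gene in the reads of its family, in percent (vertical axis), for the fie genes (left) and the mez genes (right); symbols are the 4 libraries and bars are exact 95% Clopper-Pearson intervals. The fie1 share stays between 76.4% and 86.7%, while in the mez family mez1 and mez2 each hold between 29.4% and 50.7% and mez3 at most 19.9%.

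The imprinted gene mez1 had no single direction against mez2 across the libraries. The log2 ratio of mez1 to mez2 was -0.60, -0.76, 0.02 and 0.14 in replicates 1 to 4, with a mean of -0.30 ± 0.45 (SD, n = 4), and an interval from the 4 ratios alone of -1.01 to 0.41 (exact sign-flip permutation p = 0.5; limma adjusted p = 0.17, in a fit where 86.6% of genes differed from mez2). The interval thus holds differences in either direction. In contrast, mez3 was below mez2 in 4 of 4 libraries, with log2 ratios of -1.33, -1.29, -1.49 and -2.08. The mean was -1.55 ± 0.37 (SD, n = 4), 2.93-fold lower, with an interval of -2.13 to -0.97 (exact sign-flip permutation p = 0.13; limma adjusted p = 7.0e-05).

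The ratio of mez1 to mez3 was 0.73, 0.53, 1.51 and 2.23 on the log2 scale in replicates 1 to 4, with a mean of 1.25 ± 0.77 (SD, n = 4). Its SD was the largest of the 10 pairs compared, and the interval from the 4 ratios alone, 0.02 to 2.48, only just stayed above 0 (exact sign-flip permutation p = 0.13; limma adjusted p = 0.00061, with 81.3% of genes differing from mez3). Without replicate 4 the mean ratio was 0.93. In that library, in which mez1 was highest and mez3 lowest, 8 of the 9 BETL and 3 of the 3 embryo-surrounding markers were also at their lowest, ebe1 being the exception. The starchy endosperm list was divided there. Of its 6 models above 0, 3 were at their highest, nkd1 and nkd2 among them, and 2 at their lowest, fl3 among them. The part of these differences in the ratio was not tested. Paralogs share sequence, and how reads that match more than 1 gene were counted is not given in the sources used here. No other model had the same reads as any of the 5 genes in all libraries, but this check cannot detect reads shared in part. In the RefSeq assembly, 1 annotated gene overlaps the span of mez2, so reads of that pair may be mixed, and none overlaps the other 4 genes.

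**Figure D3:**
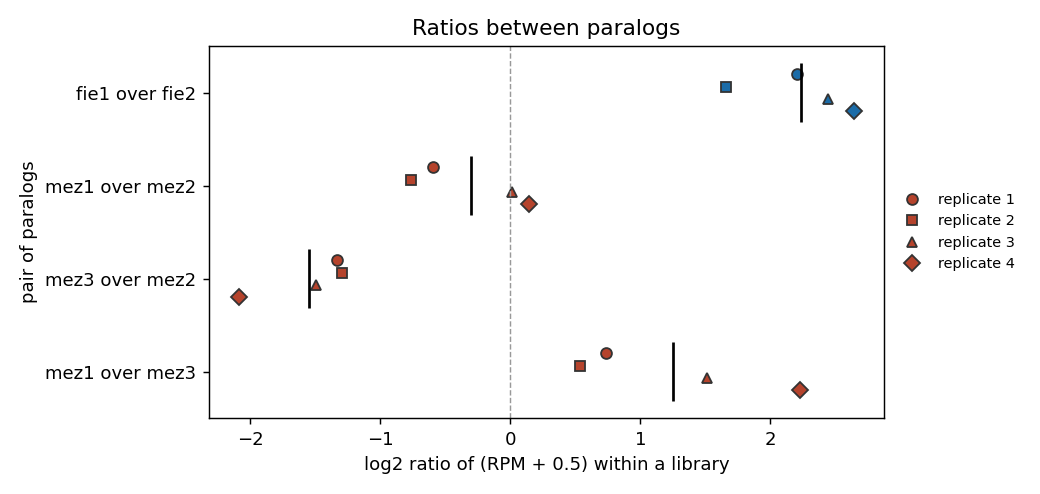
Log2 ratio of (RPM + 0.5) within each library (horizontal axis) for 4 pairs of paralogs (vertical axis); symbols are the 4 libraries, short vertical lines are means and the dashed line marks equal read shares. All fie1 to fie2 ratios lie between 1.66 and 2.64, the mez1 to mez2 ratios lie on both sides of 0, and mez3 lies below mez2 and mez1 in every library.

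The remaining 6 of the 10 pairs set a fie gene beside a mez gene, and they are given as read shares only, since transcripts of the 2 families cannot be assumed to have equal length. The mean log2 ratio of fie1 was 1.40 to mez2, 1.70 to mez1 and 2.95 to mez3, each positive in 4 of 4 libraries (limma adjusted p from 1.3e-08 to 7.8e-05; exact sign-flip permutation p = 0.13 each). Intervals from the 4 ratios alone were 0.92 to 1.88, 1.23 to 2.17 and 2.03 to 3.88. For fie2 as the denominator the mean was 0.83 for mez2 and -0.72 for mez3, each with 1 sign in 4 of 4 libraries (limma adjusted p = 0.0022 and 0.0087; exact sign-flip permutation p = 0.13 each). Intervals from the 4 ratios alone were 0.20 to 1.47 for mez2 and -1.37 to -0.07 for mez3, the latter only just below 0. For mez1 the mean ratio to fie2 was 0.53, positive in 3 of the 4 libraries, with an interval from the 4 ratios alone of -0.59 to 1.66 (limma adjusted p = 0.052; exact sign-flip permutation p = 0.25). Limma thus called 8 of the 10 pairs, the same number that had a single sign in all libraries; percentages of all genes called against mez1 and mez2 were 79.9% and 86.6%.

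Read shares were also summed over each family. The 2 fie genes together had 55.6, 67.1, 70.04 and 64.6 RPM in replicates 1 to 4, a mean of 64.3 ± 6.21 RPM (SD, n = 4), and the 3 mez genes 46.3, 38.9, 42.5 and 43.3 RPM, a mean of 42.7 ± 3.06 RPM (SD, n = 4). The imprinted pair fie1 and mez1 summed to 60.9, 62.6, 77.8 and 76.7 RPM, against 41.1, 43.3, 34.7 and 31.2 RPM for fie2, mez2 and mez3 together. In every library the imprinted pair thus held more reads than the other paralogs, by a margin that was widest in replicates 3 and 4. This margin came from fie1 and not from mez1. With 32.1%, 29.4%, 43.1% and 47.7% of mez reads in replicates 1 to 4, mez1 held fewer reads than mez2 and mez3 together in every library.

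Spread between libraries was set against that of counting alone. For mez2 the coefficient of variation of RPM was 10.5%, and counting error alone gives 10.4%. For the other genes it was larger than counting error gives: 11.04% against 6.46% for fie1, 29.0% against 14.4% for fie2, 24.7% against 11.8% for mez1 and 31.1% against 18.5% for mez3. The SD of log2 levels of mez2, 0.14, was smaller than that of most genes of like level (17.6% of 4022 genes within 1.5-fold of its mean had a smaller one). For fie1 the same percentage was 36.2%, and for fie2, mez1 and mez3 it was 67.0%, 72.3% and 71.4%, so these 3 genes varied somewhat more than the median gene of their level.

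**Figure D4:**
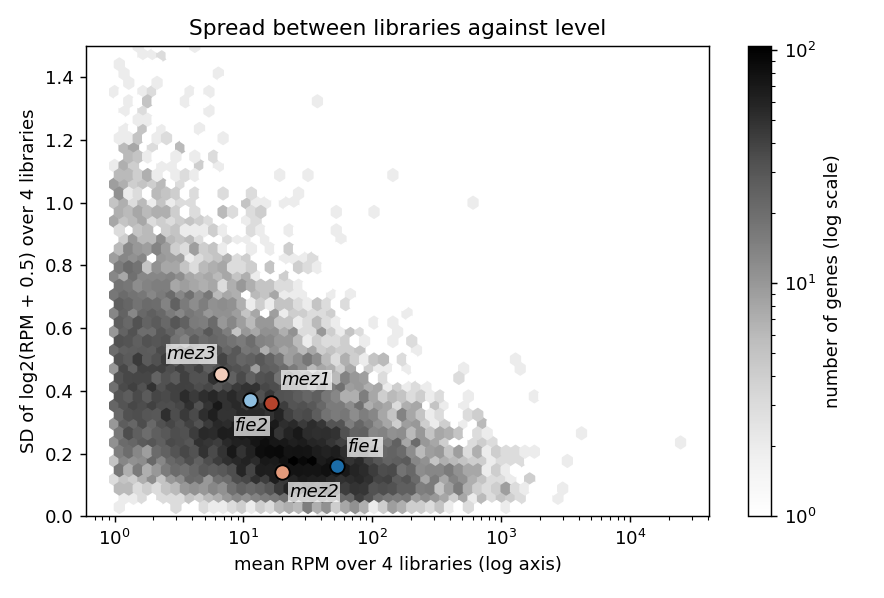
SD of log2(RPM + 0.5) over the 4 libraries (vertical axis) against mean RPM (horizontal log axis) for all models with a mean of 1 RPM or more; grey hexagons count models and coloured points are the 5 genes. At an SD of 0.14, mez2 lies low for its level, and fie1, fie2, mez1 and mez3, at 0.16, 0.37, 0.36 and 0.45, lie within the cloud of genes of like level.

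A chi-square test of recovered reads, with Benjamini-Hochberg adjustment over all genes kept by edgeR's filter, asked which genes differed between these 4 libraries beyond counting error. It called 44.3% of 16516 genes. Of the 5 genes it called fie1 (adjusted p = 0.0083), fie2 (0.024) and mez1 (0.00028), but neither mez2 (0.69) nor mez3 (0.14). With so large a share of all genes called, 3 of 5 says little about these genes in particular. Without replicate 4, where 17.4% of genes were called, none of the 5 passed (3 had an unadjusted p under 0.05), with adjusted p = 0.055 for fie1, 0.087 for fie2 and 0.052 for mez1. The fie1 call was also lost with plain library sums (0.090) and without replicate 1 (0.079), and the fie2 and mez1 calls without replicate 2 (0.87 and 0.071).

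Other PRC2 subunit genes were read as far as the RefSeq table names them. The vef101 gene, of the EMF2 type, had 13.7, 12.2, 12.4 and 6.39 RPM in replicates 1 to 4, a mean of 11.2 ± 3.25 RPM (SD, n = 4). Replicate 4 was lowest, as it was for mez3. The chi-square test called vef101 (adjusted p = 0.036), but not without replicate 4 (0.90) and not when no filter was applied (0.066).

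The MSI1-type nfc genes, whose products are also known from other chromatin complexes, were led by nfc102. It had 414, 420, 372 and 342 RPM in replicates 1 to 4, a mean of 387 ± 36.8 RPM (SD, n = 4). The others averaged 202 ± 12.4 RPM for nfc101, 106 ± 7.78 RPM for nfc103 and 34.8 ± 2.19 RPM for nfc104 (SD, n = 4 each), and the 4 genes summed to between 688 and 761 RPM. The chi-square test called nfc101 (adjusted p = 1.4e-06) and nfc102 (0.0044), though neither without replicate 4 (0.21 and 0.057), and it did not call nfc103 (0.54) or nfc104 (0.38). All 6 matched partner genes, mez3 included, averaged 1 RPM or more, and their median was 70.3 RPM.

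**Figure D5:**
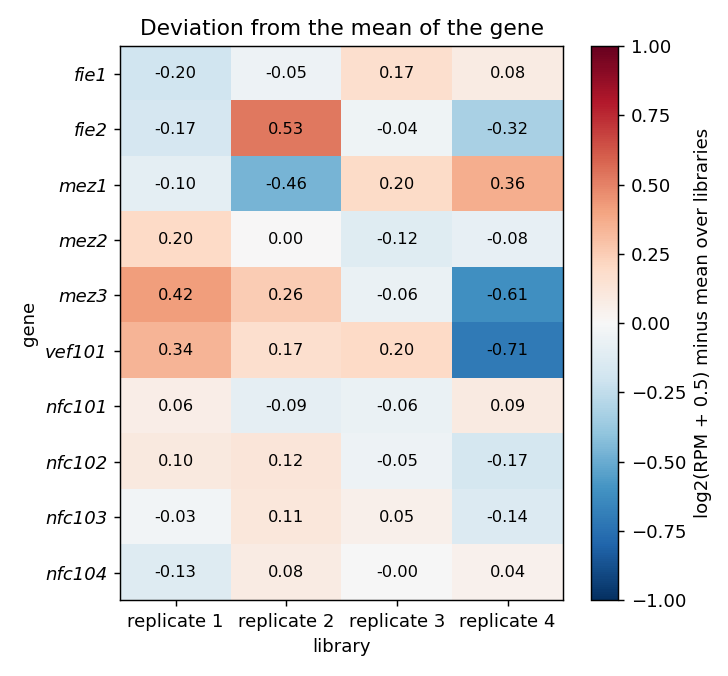
Deviation of each gene in each library from its own mean over the 4 libraries, on the log2(RPM + 0.5) scale (colour and printed values), for genes in rows and libraries in columns. The deepest deviations are those of vef101 (-0.71) and mez3 (-0.61) in replicate 4, where mez1 deviates by 0.36, and fie2 stands out in replicate 2 at 0.53.

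Genes for other histone-modifying enzymes were also present. Of the 8 matched genes of the SET domain family, which holds histone lysine methyltransferases, 7 averaged 1 RPM or more and the median was 8.20 RPM. The highest were set105 at 60.7 ± 2.33 RPM and sdg107 at 52.2 ± 4.84 RPM, and the lowest was sdg123 at 0.789 ± 0.252 RPM (SD, n = 4 each). The chi-square test called 0 of the 6 that it tested and 0 of the 8 without the filter (0 and 0 at an unadjusted p under 0.05), against 44.3% and 20.7% of all genes. The 1 matched gene of the JmjC type, jmj13, a family that holds histone demethylases, had 18.5 ± 1.05 RPM (SD, n = 4).

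Beside fie1 and mez1, 3 further genes known as imprinted in maize endosperm were matched. The nrp1 gene had 0.291, 0.368, 2.94 and 1.83 RPM in replicates 1 to 4, which rest on 27 reads in all. The meg1 gene, which is also a marker of the BETL, had 18.4, 36.3, 40.0 and 1.46 RPM, and the values of fl3, a PLATZ-type transcription factor gene, are given above. Levels within this list of 5 thus differed in their order between libraries: meg1 and fl3 were lowest in replicate 4, where mez1 was highest, and fie1 and nrp1 were highest in replicate 3. The chi-square test called 3 of the 3 genes of the list that passed the filter, against 44.3% of all genes, and 5 of 5 without the filter, against 20.7%. The latter share is over 37643 models, of which 21181 averaged 1 RPM or more, and is not matched to the level of these genes. Without replicate 4 it called 2 of the 4 tested, meg1 and fl3, against 17.4%.

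The fie2 gene is also known to be expressed in the embryo, so embryo markers are given beside it. Of 7 matched embryo markers, 4 were at 0 in every library, and the list summed to 25.3, 26.2, 31.5 and 45.5 RPM in replicates 1 to 4, carried by ole1 and wox2a. The sum was highest in replicate 4, and fie2 in replicate 2. Whether embryo RNA has a part in the level of fie2 was not tested. In this bulk tissue a smaller share of a cell type and less RNA per cell cannot be told apart.

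For each gene, the 3 named genes with a mean of at least 10 RPM and the most similar pattern over the 4 libraries were listed, by the root mean square (RMS) difference of log2 levels centred on each gene's mean. For fie1 they were TUB2, RS2Z37A and fgp1, with RMS differences of 0.02 to 0.04, and for mez2 they were SMC3, rps6-2 and cys1, with 0.01 to 0.02. For mez1 they were MYBR43, D8 and COR413-TM1, with 0.06 to 0.09, and for mez3 gst6, gsh1 and Hda1, with 0.02 to 0.05. For fie2, the nearest were akin1, Med13 and RNRL2, with 0.09 to 0.12. Among about 1039 candidates, 104 lay within 0.1 of mez2 and 68 within 0.1 of fie1, but 18 of mez3, 7 of mez1 and 2 of fie2. Since mez2 and fie1 varied little themselves, any gene with little spread lies near them, and these counts follow the size of a gene's spread as well as its pattern. With 4 libraries such likeness is a description only.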

How the data were processed

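The submitters' processing notes name bedtools without a version or a role. Not given in the sources used here are the aligner, the build, the gene annotation and the strandedness of counting. The values deposited by the authors are a scaled signal per gene model, and all libraries sum to 4773346. In each library 100% of values above 0 were the smallest of them times a whole number, within 0.01 of a read, which gave the reads. In replicate 3 this step, 1.00, is close to 1, so results on reads were also computed without replicate 3. RPM was computed from these reads and equalled RPM from the deposited signal within a small tolerance.

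Names came from RefSeq synonyms (assembly Zm-B73-REFERENCE-NAM-5.0), which name 18787 models; its coordinates were used only to count overlapping genes. The genes and lists were chosen with earlier results of these data known. None of the 4 DNA glycosylase entries matched a model, and 7 of the partner and 3 of the imprinted entries did not. Named genes are the members, all matched partner and imprinted genes, jmj13, the 2 highest and the lowest SET domain gene and the 3 genes most like each member; cell type markers and 2 further SET domain genes were named after their values were seen. Pair ratios used log2(RPM + 0.5), limma 3.58.1 over models averaging at least 1 RPM and exact sign-flip permutation; the planned division by coding length could not be made. The planned pairs were those of the 4 genes; all results on GRMZM2G157820 were added after the files were seen. The chi-square test used TMM effective library sizes from edgeR 4.0.16. Tests were tested on simulated data. Alternatives were other pseudocounts, filters, scalings (DESeq2 1.42.0 size factors among them) and leaving out each library.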

Additional observations from a re-analysis of the deposited data

Results flagged for a closer look

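In 4 of 32 values checked, 1 library stood apart from the other 3, as measured by the gap to the nearest library divided by the whole range of log2 levels; chance gives about 1 in 20. The gene vef101 was low in replicate 4, at 6.39 RPM against 12.2 to 13.7 RPM in the others, with a gap of 0.842 of the range. Also low in that library were 2 SET domain genes, chosen after their values were seen: sdg118 at 27.4 RPM against 34.4 RPM or more (0.926 of the range) and set102 at 3.65 RPM against 6.41 to 6.94 RPM (0.873 of the range). The gene jmj13 was low in replicate 1, at 16.9 RPM against 18.8 to 19.1 RPM (0.858 of the range). This measure is also large where the other libraries merely lie close together, whatever the counting error. The chi-square test called vef101 (adjusted p = 0.036). It found no difference between libraries beyond counting error for sdg118 (adjusted p = 0.62), set102 (0.30) or jmj13 (0.70). No fie or mez gene and none of the 10 ratios stood apart in this way.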

How the results depend on the processing

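Of 136 alternative values for single ratios, levels and chi-square p-values, 125 kept their direction and side of the threshold (levels moved by less than 1 SD), 9 lost a call, 2 gained one and none changed sign. Calls on ratios here are those of limma, whose p-values are too small, as said above. Intervals from the ratios alone were not computed for the alternatives. The ratios of fie1 to fie2, mez3 to mez2 and mez1 to mez3 kept their limma calls under pseudocounts of 0.1 and 1 RPM. They also kept them with no filter on low values and without any 1 library. For mez1 to mez3 the interval over all 4 libraries, 0.02 to 2.48, only just stayed above 0, so its kept call is weak support. With GRMZM2G157820 in place of GRMZM2G043484 as the gene set against mez2, the log2 ratio was -0.30 and was no longer called. The ratio of mez1 to fie2 was called at a pseudocount of 1 RPM (0.51); leaving out 1 library gave 0.31 to 0.86, called without replicate 2. For mez3 to fie2 the same gave -0.91 to -0.62, with the call lost without replicate 3 (-0.71, adjusted p = 0.0505). The adjusted chi-square p of fie1 was 0.090 with plain library sums and 0.0044 to 0.079 without 1 library, that of fie2 0.020 to 0.87 and that of mez1 4.4e-05 to 0.071. Genes called by the chi-square test numbered 2955 to 6872 without 1 library, lowest without replicate 4, against 7314; this was the 1 of 7 alternative counts that moved by more than 1.5-fold. The cause of these changes was not tested. Division by coding length was not run. No paired analysis was possible because the labels hold 1 group and no second group shares its replicate numbers; the ratios between genes were taken within each library. Depth limits mez3 most, with 22 to 42 reads a library.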
